A study of Mus musculus with 24 samples.

Results

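The 40 genes described here form a list of factors that carry a cell through mitosis, chosen by name. All 40 of 40 symbols were present among the 26995 gene symbols that were counted, and each gene is represented by its 3′UTR entry with the most reads on average in the 24 libraries. By what they do they fall into 8 roles: 7 regulators of mitotic transcription and entry, 6 genes of chromosome structure and condensation, 5 of the centromere and kinetochore, 4 of the spindle checkpoint, 4 of the chromosomal passenger complex, 7 spindle motors and spindle assembly factors, 2 partners of the anaphase-promoting complex (APC/C) and 5 cytokinesis genes. RNA came from 3T3-L1 cells, a mouse pre-adipocyte line of embryonic fibroblast origin. DMSO was the control, and the treated cells received 0.5 μM ML-792, an inhibitor of the enzyme that activates SUMO, a small protein that is attached to other proteins. Libraries were made at day −2 (pre-adipocytes, PA), day 1 (the time of clonal expansion, CE), day 3, and day 7 (mature adipocytes, MA), with 3 replicates named A, B and C in each of the 8 conditions. Differentiation was induced with dexamethasone, 3-isobutyl-1-methylxanthine and insulin, and all libraries, DMSO included, came from cells that had received 100 μM 4-thiouridine for 45 min. All samples are of a single cell line, and at each day the cells were collected as a whole culture, so dividing cells were not separated from the others.

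Confluent pre-adipocytes rest outside the cell cycle and re-enter it after hormonal induction, in the rounds of division called mitotic clonal expansion, before they leave the cycle as adipocytes. Whether the cells of day −2 were cycling was not measured here. Mitotic genes are switched on late in the cycle. In resting cells the DREAM complex holds them down through a promoter element called CHR (cell cycle genes homology region). In cycling cells B-MYB and FOXM1 act through a part of that complex, often next to CCAAT boxes bound by NF-Y. Their proteins condense chromosomes, attach them to the spindle, delay anaphase until all are attached, and divide the cell, and the APC/C then marks many of them for destruction.

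The promoters are shown first because CHR and CCAAT are the elements known for this class of genes. RefSeq promoters of the build GRCm38.p6, 300 bases long with 250 before and 50 after the gene's start, were found for 33 of the 40 genes. They were not found for *Ccna2*, *Aurkb*, *Kif20a*, *Tpx2*, *Incenp*, *Smc4* and *Foxm1*. CHR was searched as TTTGAA or TTCGAA and the reverse strand TTCAAA, and 26 of 33 promoters (78.8%) held it against 21.7% of all 27025 genes with a promoter. The CCAAT box, searched as CCAAT or ATTGG, was in 25 of 33 (75.8%) against 41.1%. Both were in 23 of 33 against 8.61%. The E2F-like GCGGGAA or TTCCCGC was in 1 of 33 (3.03%) against 5.29%. Matches of CHR and CCAAT can share a base at their ends, and whether they did in these promoters was not checked. A CHR match within 50 bases of the start, on either side, was found in 24 of 33 promoters, against 6.12% of all genes. Shown here, 30 bases each and read 5′ to 3′ on the gene's strand, are the genes with values in every library below whose match lies in the 50 bases before the start, with the match in capitals.
Ube2c: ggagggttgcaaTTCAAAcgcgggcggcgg
Cdc20: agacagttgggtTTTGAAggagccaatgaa
Ncapg: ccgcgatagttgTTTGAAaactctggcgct
Cdk1: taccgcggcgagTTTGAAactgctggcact
Top2a: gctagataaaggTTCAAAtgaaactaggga
Kif11: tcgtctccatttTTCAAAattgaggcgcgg
The *Ube2c* window lies at chr2:164769888-164769917 on the plus strand, with the first base of the capitals 29 bases before the start. The *Cdc20* window lies at chr4:118437344-118437373 on the minus strand, with the first base of the capitals 18 bases before the start. The *Ncapg* window lies at chr5:45669883-45669912 on the plus strand, with the first base of the capitals 30 bases before the start. The *Cdk1* window lies at chr10:69352910-69352939 on the minus strand, with the first base of the capitals 15 bases before the start. The *Top2a* window lies at chr11:99024195-99024224 on the minus strand, with the first base of the capitals 23 bases before the start. The *Kif11* window lies at chr19:37376351-37376380 on the plus strand, with the first base of the capitals 19 bases before the start. TTCAAA is the reverse strand of TTTGAA. The windows show the letters only, and whether any factor binds them in these cells was not measured here.

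Over all 3′UTR entries the libraries held 13554718 to 27013352 total reads and 115709 to 820046 labelled reads, which carry at least 1 T to C conversion, the change that 4-thiouridine leaves in RNA made during the pulse. A sequencing error or a sequence variant can also give such a read, and no library without 4-thiouridine was analysed here to set its background. Values are counts divided by the library's effective size and set to the mean effective size, here called normalized counts, and compare libraries rather than genes. All 40 genes passed the filter on low total counts, and 27 of 40 passed it in labelled reads. The filter needs enough reads in as many libraries as make up a condition, so a gene can pass through its day 1 libraries alone. None of the 40 genes was at the floor of 3 reads in all 3 libraries of any condition in total reads. Of the marker lists, the summed normalized counts of 10 adipocyte markers were 22414 to 24803 in DMSO at day −2 and 691127 to 779689 at day 7, and those of 10 fibroblast markers were 620064 to 712840 and 59883 to 95344. The 6 leukocyte markers summed to 32.4 to 154 normalized counts and the 5 endothelial markers to 0 to 20.4 over all 24 libraries. The 5 skeletal muscle markers summed to 40.8 to 92.5 in DMSO at day −2, 16.4 to 28.2 at day 1, 124 to 214 at day 3 and 314 to 539.5 at day 7, against 105 to 221 with ML-792 at day 7. The 5 epithelial markers summed to 0 to 4.89 in DMSO up to day 3 and 19.2 to 44.4 at day 7. With ML-792 the epithelial markers summed to 0 to 23.3 at day 3 and 0 to 5.97 at day 7. Of these 4 lists, *Ptprc*, *Epcam*, *Myod1* and *Myog* were at the floor of 3 reads in every library, and the part of these cell types in the results was not tested. In every condition replicate B stood farther from A and C than these did from each other, and *Ccnb1*, *Cdk1*, *Plk1*, *Bub1b*, *Prc1* and *Cdca8* were lowest in replicate B in all 8 conditions.

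Total reads of the mitosis genes made up a larger share of the transcriptome at day 1 than on any other day. Their summed share of all reads, with a single entry for each gene, was 0.149, 0.161 and 0.154% in the DMSO libraries of day −2, 0.574, 0.496 and 0.593% on day 1, 0.161, 0.129 and 0.140% by day 3 and 0.0333, 0.0246 and 0.0378% on day 7, in the order A, B, C that is kept throughout. The means were 0.155% ± 0.00617, 0.554% ± 0.0510, 0.143% ± 0.0166 and 0.0319% ± 0.00673 (SD, n = 3). The 3 libraries of day 1 lay above the other 9, those of day 7 lay below them, and days −2 and 3 overlapped. With ML-792 the share was 0.141, 0.130 and 0.177% before induction, 0.553, 0.438 and 0.563% on day 1, 0.0805, 0.0703 and 0.0906% by day 3 and 0.0246, 0.0245 and 0.0334% by day 7. Day 1 was again the highest, and at day 3 the ML-792 libraries lay below the 3 of DMSO, with 0.0805% ± 0.0101 (SD, n = 3). The longest entry for each gene gave 0.161% ± 0.00645 in DMSO at day −2. A sum over a chosen list carries no test here. In whole cultures, fewer dividing cells and less RNA in each dividing cell cannot be told apart.

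**Figure D1:**
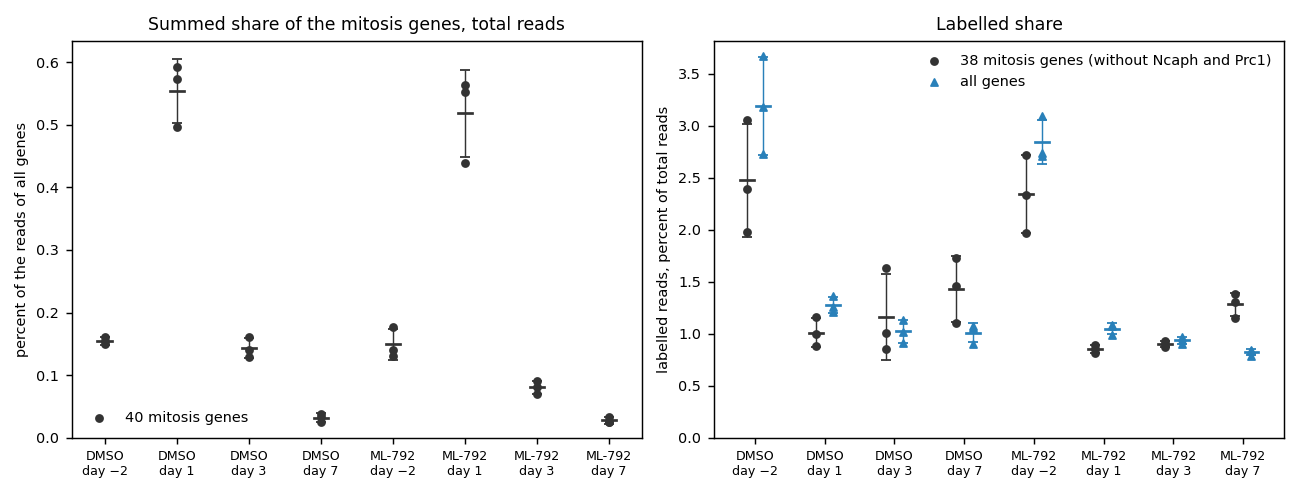
Summed share of the 40 mitosis genes in the total reads of all genes (left, percent, 1 entry per gene) in each of the 24 libraries. The right panel shows labelled reads as a percent of total reads, for the list without *Ncaph* and *Prc1* (*Nuf2* kept) and for all genes. Points are libraries and lines mean ± SD (n = 3). The left panel peaks at day 1 in both treatments, and at day 3 the ML-792 libraries (0.0703% to 0.0906%) sit below those of DMSO (0.129% to 0.161%).

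Each gene had its highest mean normalized count at day 1, in 40 of 40 genes with DMSO and in 40 of 40 with ML-792, and the lowest mean fell on day 7 in 39 and on day 3 in 1 in each treatment. In DMSO, 30 of 40 genes rose from day −2 to day 1 (edgeR's quasi-likelihood test with Benjamini-Hochberg adjustment over all entries, adjusted p under 0.01), where 5.40% of all entries tested were called higher. None fell. The median log2 fold change was 1.58, beside -0.01 over all entries. *Top2a* changed most, by 2.67 (SE 0.20, adjusted p = 1.7e-07), followed by *Ube2c* at 2.49 (adjusted p = 3.1e-06) and *Kif20a* at 2.44 (adjusted p = 1.3e-06). *Mki67* at 0.61 (adjusted p = 0.53), *Foxm1* at 0.62 (adjusted p = 0.069) and *Smc2* at 0.79 (adjusted p = 0.3) had the lowest values and were not called. Without replicate A, 12 genes were called, and without replicate C 18.

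From day 1 to day 3, 38 of 40 genes fell, against 9.34% of all entries called lower, with a median log2 fold change of -1.83 beside 0.01 over all entries. *Kif23* at -2.92 (adjusted p = 3.9e-07), *Kif20a* at -2.89 (adjusted p = 1.6e-07) and *Cenpe* at -2.53 (adjusted p = 0.0070) fell most, and *Incenp* at -0.73 (adjusted p = 0.0085), *Ttk* at -1.17 (adjusted p = 0.0099) and *Cdca8* at -1.30 (adjusted p = 0.0012) least. *Cenpf* at -2.25 (adjusted p = 0.012) and *Mki67* at -1.86 (adjusted p = 0.045) were not called. Without replicate A or without replicate C, 22 genes were called. From day 3 to day 7 another fall was called in 34 genes, against 3.72% of all entries, with a median of -2.28 beside -0.03. It was largest in *Nuf2* at -3.18 (adjusted p = 8.7e-05), *Ndc80* at -3.01 (adjusted p = 8.4e-06) and *Ncapg* at -2.95 (adjusted p = 1.8e-05). The *Nuf2* value rests on few reads, 131 summed over the DMSO libraries of day 3 and 15 over those of day 7. *Smc4* at 0.06 (adjusted p = 0.93), *Anln* at -0.03 (adjusted p = 0.98) and *Smc2* at -0.53 (adjusted p = 0.58) were not called, and neither were *Cenpe*, *Cenpf* and *Mki67*. Without replicate A this number was 18. At day 7 the level was below that of the pre-adipocytes of day −2 in 37 of 40 genes (17.0% of all entries called lower), with a median log2 fold change of -2.44 beside -0.05. *Ndc80* at -4.14 (adjusted p = 2.6e-08), *Kif23* at -3.86 (adjusted p = 1.6e-08) and *Mki67* at -3.72 (adjusted p = 0.0012) were farthest below day −2. *Smc4* at -0.80 (adjusted p = 0.053), *Anln* at -1.16 (adjusted p = 0.020) and *Smc2* at -1.76 (adjusted p = 0.015) were not called, and *Mad2l1* at -1.21 (adjusted p = 0.0012) was the called gene with the least change.

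**Figure D2:**
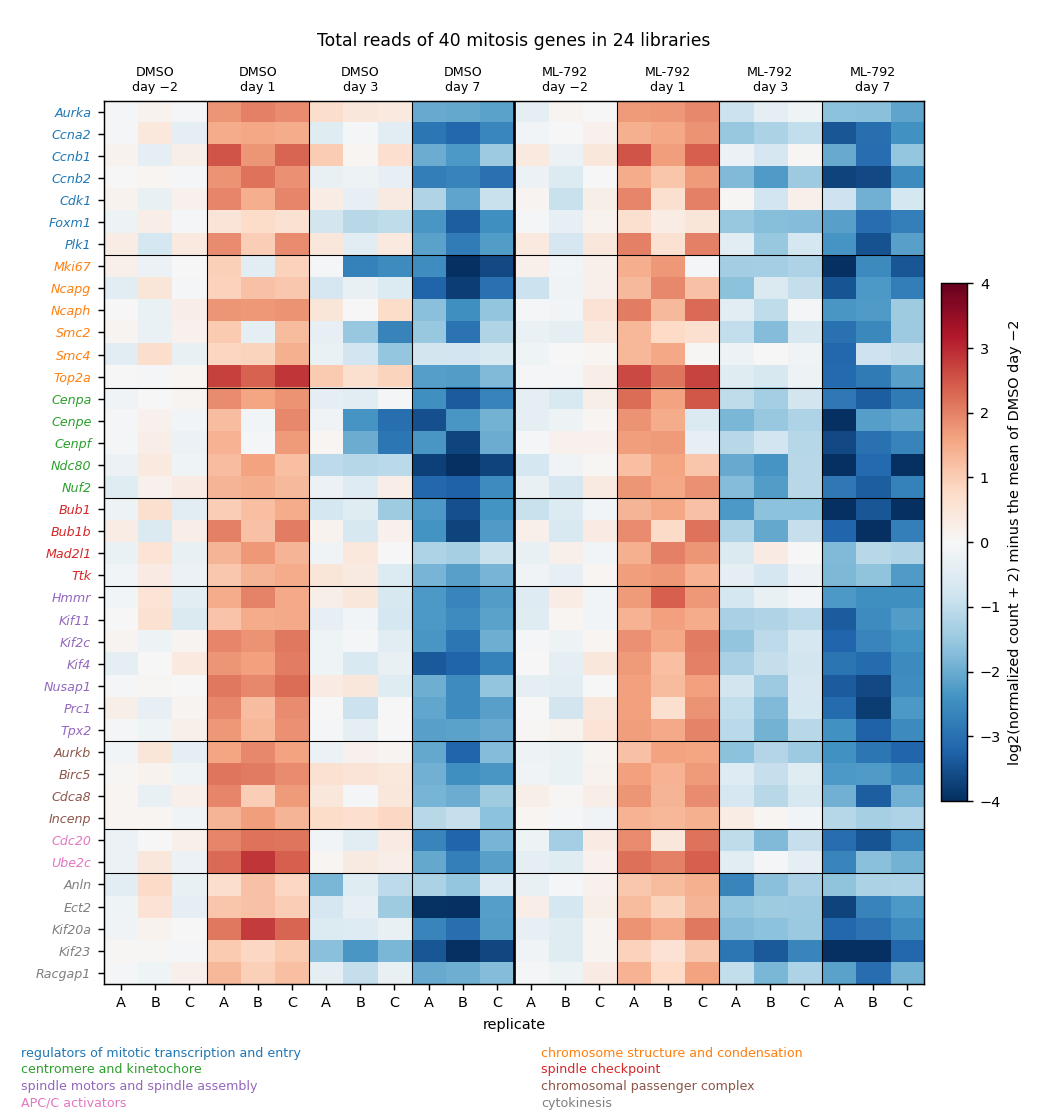
Normalized total counts of the 40 genes (vertical, coloured by role) in the 24 libraries (horizontal, by treatment, day and replicate), as log2(normalized count + 2) minus the mean of the DMSO libraries of day −2, with colours limited to −4 and 4. The day 1 columns are the highest in both treatments and the day 7 columns the lowest, while *Cenpf*, *Mki67* and *Cenpe* are low in single libraries of days 1 and 3. The label APC/C activators covers the APC/C partners *Cdc20* and *Ube2c*.

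Of the regulators, 6 of 7 rose at day 1 (median log2 fold change 1.79) and all 7 fell at day 3 and again at day 7. *Foxm1* (3′UTR at chr6:128373967-128375886 of mm10, plus strand) encodes the transcription factor that drives late cell cycle genes. Its normalized counts in DMSO were 369, 518 and 415 (day −2), 615, 720.4 and 663 (day 1), 257, 196 and 211 (day 3), and 83.4, 42.3 and 76.7 (day 7). The day 1 libraries lay above those of day −2 with no overlap, but the rise of 1.54-fold was not called (log2 0.62, SE 0.23, adjusted p = 0.069), and the day 7 libraries were the lowest, at log2 -2.69 (adjusted p = 4.4e-07) against day −2. *Ccna2* encodes cyclin A2, which acts in S phase and at mitotic entry, and had 650.1, 928 and 533 (day −2), 1908, 1995 and 1929 (day 1), 493, 660.1 and 511 (day 3), and 90.1, 76.3 and 109.9 (day 7) normalized counts. *Ccnb1*, for cyclin B1, the main partner of CDK1 in mitosis, had 373, 254 and 399.7 (day −2), 1929, 1155 and 1694 (day 1), 681, 356 and 530.4 (day 3), and 83.4, 66.0 and 121 (day 7). Both rose with no overlap between days −2 and 1, *Ccna2* by log2 1.47 (adjusted p = 1.1e-04) and *Ccnb1* by 2.22 (adjusted p = 4.1e-05), or 4.65-fold. *Cdk1*, the kinase that starts mitosis, had 1416, 1036 and 1436 (day −2), 4941, 3527 and 4937 (day 1), 1565, 1013 and 1629 (day 3), and 555, 294 and 685 (day 7). *Plk1*, for a kinase of mitotic entry and spindle assembly, had 1153, 571 and 1232 (day −2), 3481, 1853 and 3473 (day 1), 1267, 680 and 1225 (day 3), and 209.5, 132 and 196 (day 7). Their day 1 libraries also lay above all those of day −2, at log2 1.79 (adjusted p = 2.3e-04) for *Cdk1* and 1.57 (adjusted p = 0.0022) for *Plk1*, and replicate B was the lowest of each day. At day 7 *Cdk1* kept more of its day −2 level (log2 -1.34, adjusted p = 0.0010) than any other regulator, and *Ccna2* the least (-2.93, adjusted p = 5.5e-08). *Ccnb2*, for cyclin B2, and *Aurka*, for the centrosomal kinase Aurora A, rose by log2 1.96 (adjusted p = 1.3e-06) and 1.90 (adjusted p = 8.7e-07).

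The genes of chromosome structure differed among themselves. *Top2a* encodes topoisomerase II alpha, which untangles DNA before chromosomes part. It had 1322, 1265 and 1397 (day −2), 8923, 6793 and 9602 (day 1), 2747, 2070.4 and 2466 (day 3), and 286, 283 and 385 (day 7) normalized counts in DMSO (3′UTR at chr11:98992947-98993413 of mm10, minus strand). That is a rise of 6.35-fold at day 1 with no overlap, and by day 7 all 3 libraries lay below day −2. *Ncapg*, for a condensin I subunit, had 110.1, 212 and 144 (day −2), 289, 343 and 322 (day 1), 93.7, 122 and 103 (day 3), and 14.6, 9.28 and 17.2 (day 7). *Smc4*, for the ATPase that forms the core of condensin with *Smc2*, had 396, 862 and 434 (day −2), 959.7, 993 and 1417 (day 1), 438, 313 and 181 (day 3), and 314, 307 and 349 (day 7). Neither rise was called at day 1, at log2 1.03 (adjusted p = 0.011) in *Ncapg* and 1.00 (adjusted p = 0.032) in *Smc4*, although the day 1 libraries did not overlap those of day −2. Their later course was not alike, since *Ncapg* fell to log2 -3.50 (adjusted p = 3.5e-07) at day 7 against day −2, while *Smc4* was at -0.80 (adjusted p = 0.053). *Mki67*, for the protein Ki-67 that coats mitotic chromosomes and marks cycling cells, had 91.6, 66.2 and 80.3 (day −2), 156, 56.4 and 151 (day 1), 76.1, 10.5 and 12.2 (day 3), and 12.4, 1.03 and 4.58 (day 7). Its entry held few reads, and replicate B of day 1 and replicates B and C of day 3 were far below replicate A of their day, and neither step was called. *Ncaph*, another condensin I subunit, rose by log2 1.75 (adjusted p = 1.1e-04), and 2 of 6 of this role were called at day 1.

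A total of 3 DMSO libraries and 1 of ML-792 were low in the same few genes. Relative to the mean of the other replicates, *Cenpf* stood at 32.8% in DMSO day 1 replicate B and 24.5% in ML-792 day 1 replicate C. In DMSO at day 3, relative to replicate A alone, it stood at 23.0% in replicate B and 11.7% in replicate C. With these references *Mki67* and *Cenpe* were under 40% in all 4 libraries, while the median of the 40 genes was 96.7%, 117%, 83.2% and 96.9%. Against the mean of A and C, *Cenpf* in DMSO day 3 replicate B was at 41.2%. With mRNAs of 11130, 9634 and 7813 bases, *Cenpf*, *Mki67* and *Cenpe* are the longest of the 39 genes with a RefSeq mRNA length. Whether transcript length has a part in these values was not tested. Leaving out DMSO day 1 replicate B, chosen after the values were seen, left 28 genes called at day 1.

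At the centromere and kinetochore, 3 of 5 genes were called at day 1 with a median log2 fold change of 1.33, and 4 of 5 fell at day 3. *Ndc80* encodes a subunit of the complex that grips microtubule ends. Its normalized counts were 148, 229 and 154 (day −2), 407, 530.3 and 400.4 (day 1), 83.8, 77.1 and 81.9 (day 3), and 11.3, 7.22 and 11.5 (day 7), a rise with no overlap and then the largest fall below day −2 of the 40 genes, 17.6-fold. *Nuf2*, its partner in that complex, rose by log2 1.37 (adjusted p = 0.0059), and *Cenpa*, for the histone H3 variant of centromeres, by 1.76 (adjusted p = 1.7e-05). *Cenpe*, for a kinetochore motor, had 280.4, 327 and 269.7 (day −2), 692, 268 and 1102 (day 1), 266, 54.9 and 34.2 (day 3), and 23.7, 56.7 and 77.9 (day 7). *Cenpf*, for a large kinetochore protein, had 163, 201 and 143 (day −2), 438, 162 and 549 (day 1), 178, 40.9 and 20.8 (day 3), and 31.5, 11.3 and 41.2 (day 7). Replicate B of day 1 lay just below the range of day −2 in *Cenpe* and inside it in *Cenpf*, while A and C lay above it in both, and neither gene was called, at log2 1.23 (adjusted p = 0.16) in *Cenpe* and 1.18 (adjusted p = 0.18) in *Cenpf*.

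Spindle checkpoint genes, whose proteins delay anaphase, rose in 3 of 4 cases and all 4 fell at day 3. *Bub1b*, for the checkpoint protein BUBR1, had 647, 351 and 630.1 (day −2), 2113, 1175 and 2163 (day 1), 573, 334 and 590.3 (day 3), and 99.1, 38.2 and 108 (day 7) normalized counts. *Mad2l1*, for MAD2, the protein that holds back CDC20, had 275, 482 and 265 (day −2), 852, 1087 and 847 (day 1), 294, 444 and 321 (day 3), and 139, 129 and 175 (day 7). The days did not overlap between −2 and 1 in either gene, and replicate B was the lowest of each day in *Bub1b* and the highest of days −2, 1 and 3 in *Mad2l1*. At day 7 *Mad2l1* was 2.31-fold and *Bub1b* 6.67-fold below day −2. The kinase genes *Ttk* and *Bub1* were at log2 1.32 (adjusted p = 0.0057) and 1.17 (adjusted p = 0.020) at day 1, of which *Bub1* was not called.

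All 4 genes of the chromosomal passenger complex, which corrects wrong attachments and moves to the midzone, rose at day 1 and fell in each later step. *Aurkb*, for its kinase Aurora B, had 127, 195 and 106 (day −2), 419, 529 and 426 (day 1), 116, 154 and 150.3 (day 3), and 31.5, 13.4 and 40.1 (day 7) normalized counts. *Birc5*, for survivin, had 1014, 1083 and 878 (day −2), 4319.7, 4147 and 3680.4 (day 1), 1518, 1403 and 1319.95 (day 3), and 258, 178 and 197 (day 7). In each gene the 3 libraries of day 1 stood above all others, by 3.21-fold in *Aurkb* and 4.08-fold in *Birc5* over day −2. *Incenp*, for the scaffold of the complex, rose by log2 1.47 (adjusted p = 4.6e-05) and fell at day 3 by less than any of the other 39 genes. *Cdca8*, for borealin, rose by 1.59 (adjusted p = 3.3e-04).

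Spindle motors and assembly factors rose in 7 of 7 cases, by a median of log2 1.69. *Kif11*, for the motor that pushes spindle poles apart, had 170.4, 263 and 116 (day −2), 382, 493 and 503 (day 1), 139, 161 and 105 (day 3), and 33.8, 28.9 and 37.8 (day 7) normalized counts. *Tpx2*, for the activator of Aurora A on the spindle, had 723, 668 and 872 (day −2), 2513, 1869 and 2690.5 (day 1), 733, 573 and 739 (day 3), and 166, 170.2 and 183 (day 7). Both showed a day 1 group clear of day −2, at log2 1.33 (adjusted p = 0.0027) and 1.64 (adjusted p = 1.2e-05), and at day 7 they were 5.46-fold and 4.36-fold below it. The other members ranged from log2 1.62 for *Hmmr* to 2.11 for *Nusap1* at day 1, with *Kif4*, *Kif2c* and *Prc1* between them.

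The 2 APC/C partners were among the genes with the strongest rise. *Cdc20*, which turns on the APC/C at anaphase and is the target of the checkpoint, had 798, 957 and 1097 (day −2), 3647, 4257 and 4157 (day 1), 868, 684 and 1184 (day 3), and 151, 103 and 259.97 (day 7) normalized counts. *Ube2c*, the ubiquitin-conjugating enzyme of the APC/C, had 721, 1171 and 721 (day −2), 4044, 6175 and 4419 (day 1), 887, 1083 and 1011 (day 3), and 205, 125 and 188 (day 7). The day 1 values were 4.23-fold and 5.60-fold those of day −2, with no overlap, and at day 3 the libraries of both genes overlapped those of day −2 again. Both are among the genes whose CHR letters are printed above.

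Among cytokinesis genes, 3 of 5 rose and all 5 fell at day 3. *Kif20a*, for a motor of the central spindle, had 681, 826 and 751 (day −2), 3245, 5277 and 3747 (day 1), 513, 529 and 611 (day 3), and 119, 91.8 and 158 (day 7) normalized counts. *Racgap1*, for a subunit of centralspindlin, which it forms with KIF23, had 877, 803 and 1048 (day −2), 2264, 1758 and 2063 (day 1), 683, 467 and 742 (day 3), and 222, 234 and 268 (day 7). *Anln*, for anillin, the scaffold of the contractile ring, had 267, 634 and 298 (day −2), 605, 830.4 and 665 (day 1), 103, 266 and 178 (day 3), and 153, 125 and 259 (day 7). *Kif20a* and *Racgap1* rose with no overlap (5.43-fold and 2.23-fold), whereas in *Anln* replicate B of day −2 overlapped day 1 and the change was not called (log2 0.81, adjusted p = 0.13). *Anln* did not fall further after day 3 (-0.03, adjusted p = 0.98). *Kif23* rose by log2 0.98 (adjusted p = 0.0062) and fell at day 3 by 7.56-fold, the largest fall of the 40 genes. *Ect2*, for the activator of RhoA at the division site, was at 1.04 (adjusted p = 0.11) at day 1 and not called.

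**Figure D3:**
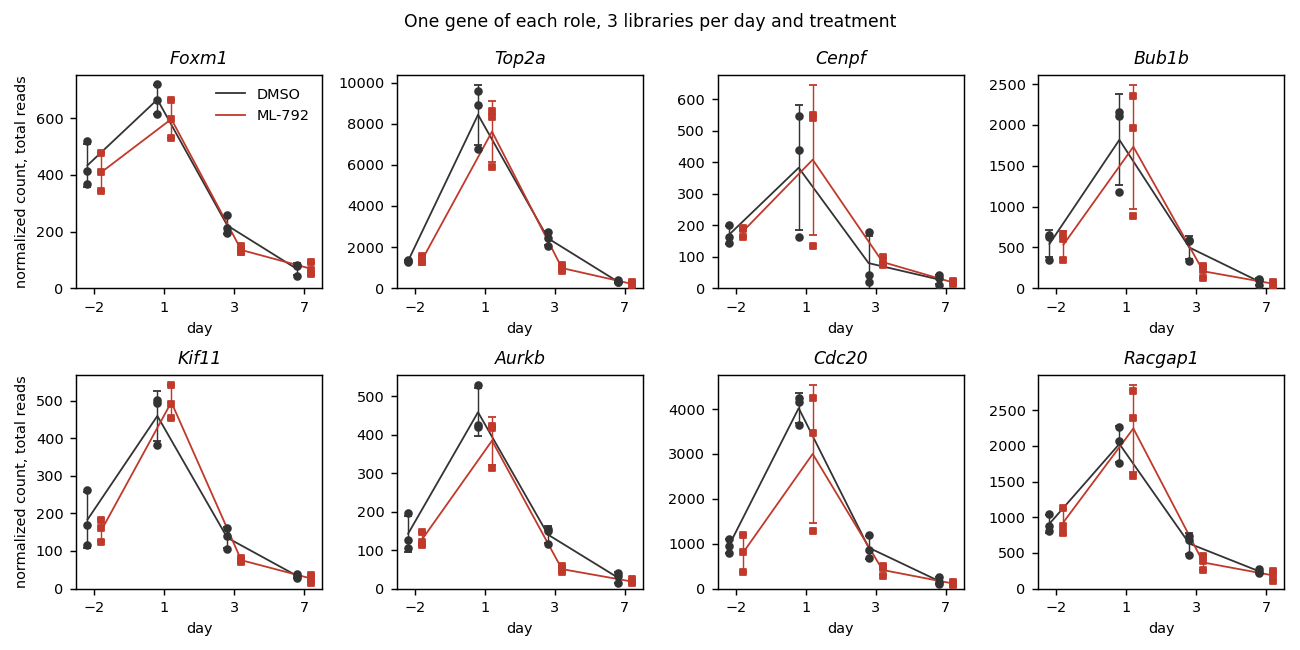
Normalized total counts (vertical axis, from 0) by day for 8 genes with 1 from each role, with points for libraries and lines through mean ± SD (n = 3) for DMSO and ML-792. Each gene peaks at day 1 in both treatments, and *Cenpf* ranges from 162 to 549 in DMSO at day 1. At day 3 the ML-792 points lie below those of DMSO in *Foxm1*, *Top2a*, *Bub1b*, *Kif11*, *Aurkb*, *Cdc20* and *Racgap1*, and between them in *Cenpf*.

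The second question was how the same genes behaved when SUMO activation was inhibited. At day −2 none of the 40 genes differed between ML-792 and DMSO (edgeR, adjusted p under 0.1, where 0% of all entries were called), 0 reached an unadjusted p under 0.05, and DESeq2 called 0. The median log2 fold change was -0.10, beside 0.00 over all entries. *Tpx2* at 0.24, *Ccnb1* at 0.22 and *Cdca8* at 0.17 had the highest values, and *Bub1* at -0.56, *Cdc20* at -0.27 and *Ndc80* at -0.26 the lowest. At day 1 edgeR again called 0 of 40, although 6.52% of all entries were called, while 4 genes had an unadjusted p under 0.05 and DESeq2 called 2. The median was 0.01 beside 0.01 over all entries. *Mki67* at 0.61 (SE 0.60, adjusted p = 0.75), *Ncapg* at 0.42 (SE 0.31, adjusted p = 0.6) and *Cenpa* at 0.39 (SE 0.23, adjusted p = 0.49) were highest, and *Kif20a* at -0.62 (SE 0.21, adjusted p = 0.103), *Nusap1* at -0.57 (SE 0.26, adjusted p = 0.28) and *Ccnb2* at -0.50 (SE 0.23, adjusted p = 0.29) lowest. *Kif20a* was called by DESeq2, at log2 -0.61.

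At day 3, ML-792 lowered 23 of 40 genes (edgeR, adjusted p under 0.1), against 6.34% of all entries called lower, and raised none. The median log2 fold change was -0.85, beside 0.01 over all entries. *Nuf2* at -1.60 (SE 0.37, adjusted p = 0.0046), *Ccnb2* at -1.53 (SE 0.25, adjusted p = 1.1e-04) and *Aurkb* at -1.47 (SE 0.30, adjusted p = 0.0013) were lowest, and *Smc4* at 0.64 (adjusted p = 0.48), *Smc2* at 0.17 (adjusted p = 0.93) and *Cenpf* at 0.05 (adjusted p = 0.99) highest, none of the latter called. *Nuf2* had few reads at day 3, 131 summed over the DMSO libraries and 42 over those with ML-792. Of these 23 genes, 13 also passed an absolute log2 fold change above 1. Without replicate A the number called was 6, without replicate C 14 and without replicate B 24. At day 3 the summed normalized counts of the 10 adipocyte markers were 387103 to 519499 in DMSO and 418171 to 485445 with ML-792, and those of the 10 fibroblast markers 67489 to 84749 and 99633 to 115321, and their part in the result was not tested.

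By role, 4 of 4 chromosomal passenger genes, 5 of 7 regulators, 4 of 7 spindle genes, 3 of 5 cytokinesis genes, 2 of 4 checkpoint genes, 2 of 5 kinetochore genes, 2 of 6 chromosome genes and 1 of 2 APC/C partners were lower at day 3. *Aurkb* with ML-792 had 121, 114 and 148 (day −2), 312, 422 and 418 (day 1), 42.7, 59.4 and 49.3 (day 3), and 23.9, 17.0 and 13.6 (day 7) normalized counts. *Birc5* had 903, 814 and 1079 (day −2), 3083, 2615 and 3224 (day 1), 694, 519 and 701 (day 3), and 201, 205 and 166 (day 7). At day 3 all treated libraries of both genes lay below the lowest DMSO library, by 2.78-fold in *Aurkb* and 2.21-fold in *Birc5*. The other passenger genes were at log2 -1.10 (adjusted p = 0.011) for *Cdca8* and -0.64 (adjusted p = 0.011) for *Incenp*.

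Among the regulators, *Foxm1* with ML-792 had 409, 343 and 477 (day −2), 663, 532 and 596 (day 1), 148, 129 and 128 (day 3), and 93.1, 49.7 and 62.8 (day 7) normalized counts. *Ccna2* had 642, 682 and 776 (day −2), 1841, 2019 and 2393 (day 1), 236, 284 and 344 (day 3), and 62.1, 82.4 and 127 (day 7). Both were lower than DMSO at day 3 with no overlap, *Foxm1* at log2 -0.71 (adjusted p = 0.052) and *Ccna2* at -0.95 (adjusted p = 0.0054). *Ccnb1* had 442, 288 and 465 (day −2), 1941, 1084 and 1753 (day 1), 283, 209 and 345 (day 3), and 81.2, 39.2 and 115 (day 7). *Cdk1* had 1382, 689.5 and 1510.2 (day −2), 4921, 1984 and 5244 (day 1), 1311, 756 and 1467 (day 3), and 727, 335 and 789 (day 7). *Plk1* had 1216, 587 and 1289.8 (day −2), 3788, 1423 and 3760.3 (day 1), 689, 323 and 571 (day 3), and 180.3, 82.4 and 205 (day 7). *Ccnb1* was called (log2 -0.90, adjusted p = 0.085), with all treated libraries below those of DMSO, and *Plk1* (-1.001, adjusted p = 0.17) and *Cdk1* (-0.25, adjusted p = 0.82) were not called. *Aurka* was also lower, at log2 -0.96 (adjusted p = 5.4e-04).

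In the chromosome genes, *Top2a* had 1274, 1291 and 1585 (day −2), 8332, 5918 and 8610.3 (day 1), 953, 849 and 1142 (day 3), and 153, 187 and 295 (day 7) normalized counts with ML-792, and its day 3 libraries were 2.47-fold below DMSO with no overlap (log2 -1.31, SE 0.21, adjusted p = 1.1e-04). *Ncapg* had 81.3, 135 and 174 (day −2), 370.2, 569.5 and 341 (day 1), 47.0, 101 and 76.4 (day 3), and 11.9, 28.8 and 20.5 (day 7). *Smc4* had 472, 529 and 560.3 (day −2), 1341, 1540.1 and 544 (day 1), 462, 518 and 477 (day 3), and 58.5, 299 and 270.1 (day 7). *Mki67* had 90.0, 72.6 and 91.6 (day −2), 219, 265 and 74.3 (day 1), 28.4, 29.7 and 32.0 (day 3), and 0, 11.8 and 5.46 (day 7). *Ncapg* (log2 -0.51, adjusted p = 0.44) and *Mki67* (-0.14, adjusted p = 0.95) were not called at day 3, and *Smc4* was on the other side of 0. *Ncaph* was lower, at -0.92 (adjusted p = 0.053). At the kinetochore *Ndc80* had 107, 157 and 178 (day −2), 403, 516 and 379.9 (day 1), 41.6, 32.3 and 78.9 (day 3), and 5.97, 18.3 and 6.82 (day 7) with ML-792 and was not called at day 3 (log2 -0.67, adjusted p = 0.24). *Cenpe* had 228, 252 and 307 (day −2), 1007, 813 and 194 (day 1), 79.9, 101 and 122 (day 3), and 11.9, 61.4 and 66.8 (day 7). *Cenpf* had 162, 190.4 and 189 (day −2), 541, 551 and 134 (day 1), 76.6, 98.2 and 75.2 (day 3), and 11.9, 19.6 and 24.6 (day 7). The treated libraries of day 3 fell between the DMSO replicates in both, and log2 was -0.24 (adjusted p = 0.92) for *Cenpe*. *Cenpa* was lower at log2 -0.74 (adjusted p = 0.053).

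*Bub1b*, with 599, 342 and 659.8 (day −2), 1961, 883 and 2353 (day 1), 222, 124 and 277 (day 3), and 56.1, 31.4 and 77.8 (day 7) normalized counts under ML-792, was 2.40-fold lower than DMSO at day 3, while *Mad2l1*, with 267, 374 and 306 (day −2), 873, 1337 and 1128 (day 1), 217, 409.6 and 329 (day 3), and 94.3, 152 and 141 (day 7), overlapped DMSO and was not called (log2 -0.15, adjusted p = 0.84). *Bub1* was lower at -1.06 (adjusted p = 0.054). *Kif11* had 123, 182 and 161 (day −2), 454, 542 and 491 (day 1), 70.0, 73.7 and 82.6 (day 3), and 15.5, 28.8 and 35.5 (day 7). *Tpx2* had 771, 819.97 and 1089 (day −2), 2410.3, 2151 and 2961 (day 1), 357, 200.3 and 348 (day 3), and 139.7, 78.4 and 126 (day 7). The treated libraries of day 3 lay below DMSO in both, at log2 -0.84 (adjusted p = 0.055) and -1.18 (adjusted p = 7.5e-04), and *Kif2c* and *Nusap1* were lower at -0.86 and -1.07. Of the APC/C partners, *Cdc20* had 814, 366 and 1191 (day −2), 3474, 1280.3 and 4248 (day 1), 466, 277 and 498 (day 3), and 112, 83.7 and 145 (day 7) and was lower (log2 -1.14, adjusted p = 0.092). *Ube2c* had 667, 606 and 954 (day −2), 3941, 3439 and 4414 (day 1), 623, 818 and 663 (day 3), and 134, 265 and 229 (day 7) and was not called (-0.50, adjusted p = 0.25), although its 3 treated libraries of day 3 also lay below those of DMSO. Whether these changes differ from each other was not tested. In cytokinesis, *Kif20a* had 596, 537 and 815 (day −2), 2585, 2155 and 3231 (day 1), 226, 239 and 265 (day 3), and 83.6, 95.4 and 131 (day 7). *Racgap1* had 874, 785 and 1131 (day −2), 2387, 1573 and 2777 (day 1), 459.5, 255 and 382 (day 3), and 204, 107 and 240.1 (day 7). *Anln* had 299, 357 and 418 (day −2), 785, 895 and 1003 (day 1), 58.0, 114 and 150.4 (day 3), and 119, 154 and 156 (day 7). *Kif20a* (log2 -1.18, adjusted p = 6.2e-04), *Racgap1* (-0.79, adjusted p = 0.057) and *Kif23* (-1.03, adjusted p = 0.093) were lower at day 3, and *Anln* (-0.77, adjusted p = 0.24) and *Ect2* (-0.75, adjusted p = 0.39) were not called.

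At day 7, when the levels were low in both treatments, 2 of 40 genes were lower with ML-792, against 4.45% of all entries called lower, and none was higher. They were *Bub1* at -1.38 (SE 0.45, adjusted p = 0.067) and *Nusap1* at -1.13 (SE 0.32, adjusted p = 0.028). *Bub1* had 36.0, 14.4 and 34.4 normalized counts in DMSO and 7.16, 15.7 and 9.55 with ML-792 at that day, so its groups overlapped. *Nusap1*, for a protein that bundles spindle microtubules, had 77.7, 51.6 and 101 and 28.7, 23.5 and 53.2, also with an overlap. The median was -0.21 beside 0.01, *Prc1* was the next lowest at -0.69 (adjusted p = 0.39), and *Ect2* at 0.57 (adjusted p = 0.69), *Ncapg* at 0.57 (adjusted p = 0.56) and *Aurka* at 0.29 (adjusted p = 0.48) were the highest. With 1 replicate or library left out the number called ranged from 0, without replicate A, to 3. In a fit of the 6 libraries of that day 0 were called.

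**Figure D4:**
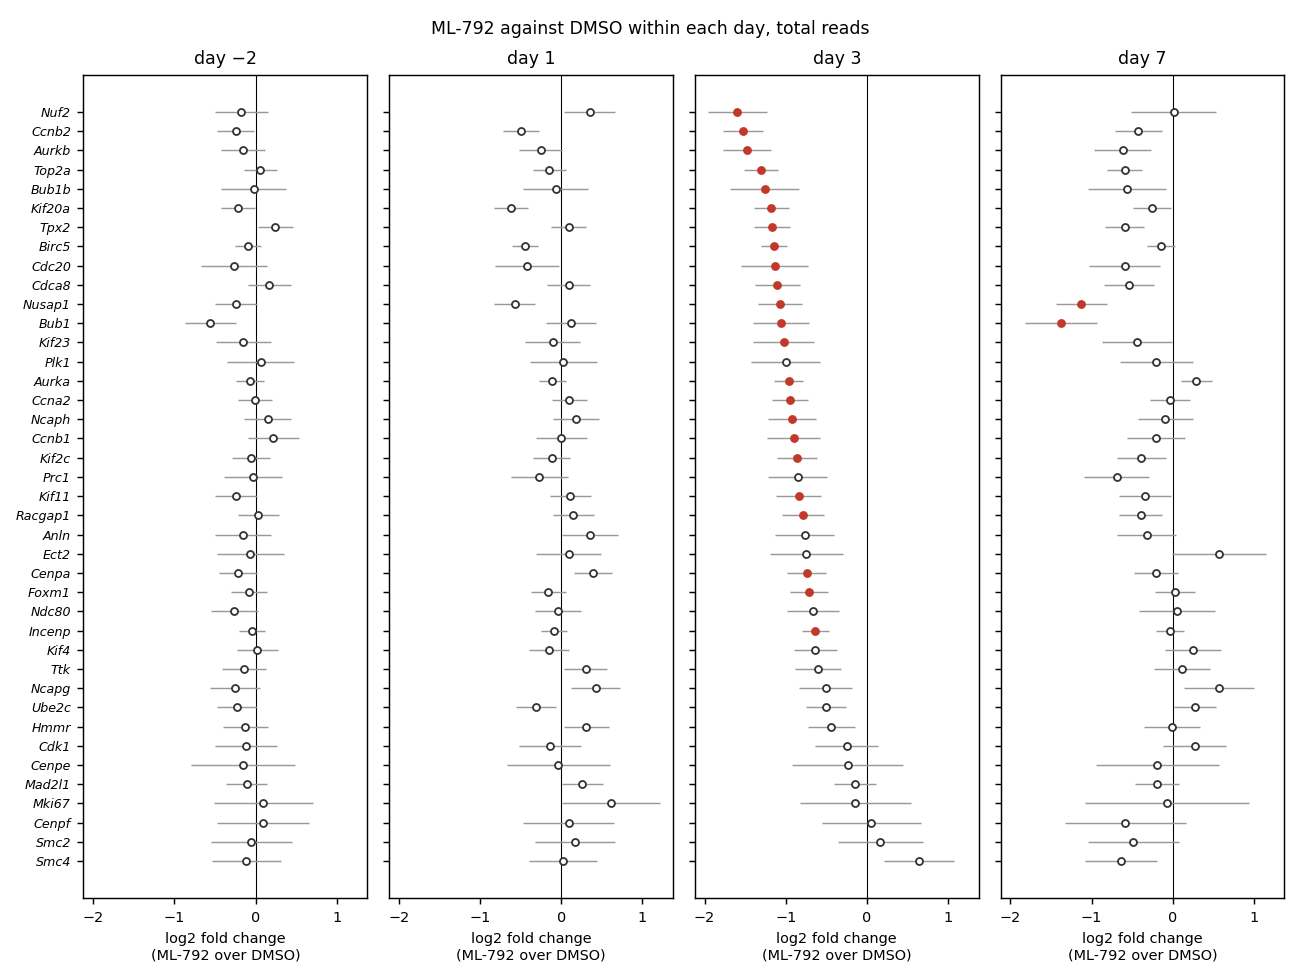
Log2 fold change of ML-792 over DMSO (horizontal axis) for the 40 genes (vertical axis) at days −2, 1, 3 and 7 in total reads, with whiskers for the standard error and filled red points for an adjusted p under 0.1. Points lie around 0 at days −2 and 1, 23 are red and to the left of 0 at day 3, and 2 are red at day 7.

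Over time with ML-792 the genes again rose and then fell. From day −2 to day 1, 32 of 40 genes rose, against 8.56% of all entries called higher, with a median log2 fold change of 1.67 and with *Top2a* (2.46, adjusted p = 5.3e-09), *Ube2c* (2.40, adjusted p = 9.0e-08) and *Cenpa* (2.36, adjusted p = 6.5e-08) at the top. *Foxm1* (0.54, adjusted p = 0.064), *Smc2* (1.01, adjusted p = 0.14) and *Kif23* (1.03, adjusted p = 0.027) had the lowest values and were not called, and without replicate A 16 genes were called. From day 1 to day 3, 39 of 40 fell, against 10.2% of all entries, with a median of -2.62. *Kif23* at -3.84 (adjusted p = 8.1e-08), *Nuf2* at -3.48 (adjusted p = 7.1e-08) and *Kif20a* at -3.45 (adjusted p = 5.2e-11) fell most, *Cdk1* at -1.78 (adjusted p = 0.0013) and *Incenp* at -1.27 (adjusted p = 1.3e-06) least among those called, and *Smc4* at -1.23 (adjusted p = 0.034) was not called. From day 3 to day 7, 30 of 40 fell, against 4.87%, with a median of -1.55, from *Ndc80* at -2.29 (adjusted p = 1.7e-04) and *Bub1* at -2.22 (adjusted p = 5.7e-04) to *Foxm1* at -0.97 (adjusted p = 0.0055). *Mki67* (-2.39, adjusted p = 0.052), *Cdk1* (-0.93, adjusted p = 0.1) and *Anln* (0.42, adjusted p = 0.5) were not called. Without replicate A 9 genes were called in this step, and without replicate C 15.

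Whether a step differed between treatments was tested by the interaction of step and treatment, given as the log2 step with ML-792 minus that with DMSO. For the step from day −2 to day 1, 0 of 40 genes differed (edgeR, 1.81% of all entries called, 0 at an unadjusted p under 0.05, and 0 by DESeq2), with values from -0.41 for *Kif20a*, -0.36 for *Birc5* and -0.33 for *Nusap1* to 0.60 for *Cenpa*, 0.68 for *Ncapg* and 0.68 for *Bub1*. For the step from day 1 to day 3, 6 of 40 fell further with ML-792, against 1.77% of all entries called lower. They were *Nuf2* (-1.94, SE 0.48, adjusted p = 0.024), *Tpx2* (-1.26, SE 0.31, adjusted p = 0.022), *Top2a* (-1.16, SE 0.29, adjusted p = 0.028), *Cenpa* (-1.13, SE 0.33, adjusted p = 0.078), *Ccna2* (-1.05, SE 0.31, adjusted p = 0.072) and *Aurka* (-0.85, SE 0.25, adjusted p = 0.066). The *Nuf2* value rests on its few reads at day 3. *Aurkb* (-1.22, adjusted p = 0.12) had the next value after *Tpx2* and was not called. *Smc4* (0.62), *Smc2* (0.00) and *Cenpf* (-0.04) had the highest values. The median was -0.85 beside 0.00 over all entries. Without replicate A or C 0 were called, without replicate B 14, and without DMSO day 3 replicate B or ML-792 day 1 replicate C, libraries chosen after their values were seen, 3 each. For the step from day 3 to day 7, *Aurka* (1.26, SE 0.26, adjusted p = 0.0081) and *Birc5* (1.00, SE 0.24, adjusted p = 0.020) fell less with ML-792, against 1.78% of all entries called higher, and *Nuf2* (1.61, adjusted p = 0.27) and *Ect2* (1.32, adjusted p = 0.51) had higher values that were not called. *Smc4* (-1.28), *Smc2* (-0.65) and *Cenpf* (-0.63) were lowest. Without replicate A 0 were called in that step and without replicate C 1. Both later steps use the same day 3 libraries.

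Labelled reads were few. A total of 13 of the 40 genes had too few to be tested, and the counts and medians that follow are of the other 27, which describe the genes that passed and not the 40. In all genes together the labelled share fell after day −2, so labelled counts, which were scaled by the total reads, had a median log2 fold change of -1.27 over all entries from day −2 to day 1 in DMSO. Over all 40 genes, the mean normalized labelled count was higher at day 1 than at day −2 in 21 and lower in 19. Among the 27 genes that passed the filter it was higher in 18 and lower in 9, and among the 13 that did not, higher in 3 and lower in 10. *Anln*, at 15.4 and 6.15, and *Smc2*, at 10.3 and 5.69, were among these last. *Cdc20* at 2.01 (SE 0.52, adjusted p = 0.0024) and *Top2a* at 1.95 (SE 0.48, adjusted p = 0.0016) rose (edgeR, adjusted p under 0.01), where 0.567% of all entries were called higher. The normalized labelled counts of *Cdc20* in DMSO were 19.3, 9.07 and 19.2 (day −2), 38.0, 73.7 and 81.9 (day 1), 16.5, 19.9 and 26.9 (day 3), and 4.51, 2.06 and 11.5 (day 7). Those of *Top2a* were 33.8, 23.6 and 22.7 (day −2), 86.9, 86.4 and 137 (day 1), 38.6, 31.5 and 19.6 (day 3), and 3.38, 0 and 10.3 (day 7). Every day 1 library of both genes lay above every library of day −2. *Nusap1* at 1.76 (adjusted p = 0.12) was next, and *Incenp* at -1.32 (adjusted p = 0.24), *Cenpf* at -0.84 (adjusted p = 0.53) and *Foxm1* at -0.67 (adjusted p = 0.63) were lowest, none called. When the labelled reads were scaled by the labelled total of each library instead, 5 genes were called higher. The share of all entries called with that scaling is not given here, so the 5 cannot be set against the 0.567%. Without replicate A, B or C the number, scaled by total reads, was 0 or 1.

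**Figure D5:**
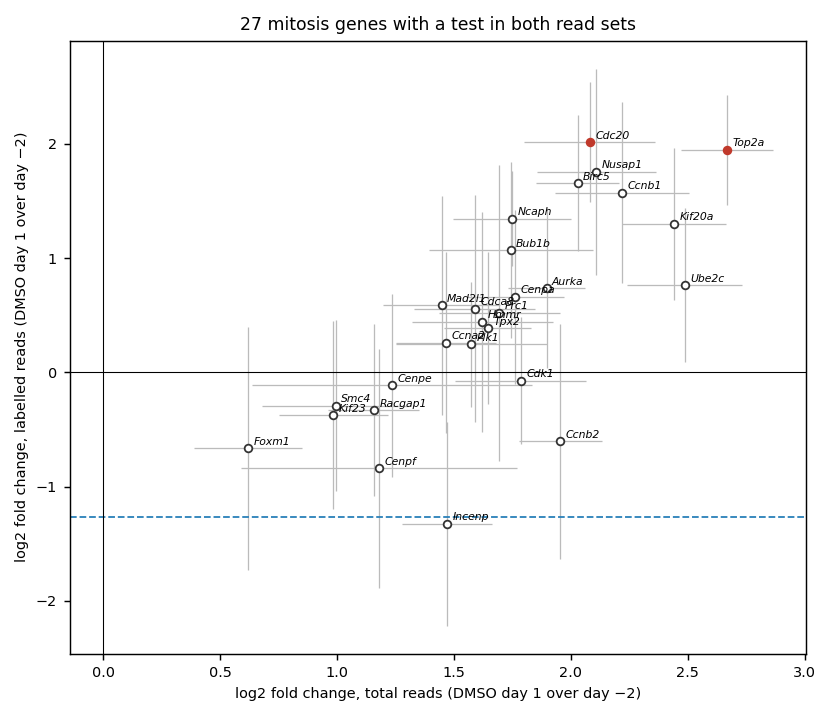
Log2 fold change from day −2 to day 1 in DMSO in labelled reads (vertical) against total reads (horizontal) for the 27 genes tested in both, with whiskers for the standard error, red for genes called in labelled reads and a dashed blue line at the median of all labelled entries, -1.27. *Cdc20* and *Top2a* are red at the top right. A total of 26 of 27 points lie above the dashed line, but a gene can pass the filter through its day 1 libraries alone. The position of these points therefore does not describe the 40 genes. Of the 13 genes that did not pass, 10 had a lower and 3 a higher mean labelled count at day 1.

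From day 1 to day 3 no gene of the 27 was called in labelled reads (edgeR, 3.07% of all entries called, 12 genes at an unadjusted p under 0.05, and 1 by DESeq2), with a median of -1.61 beside -0.32 over all entries, or -1.48 with *Foxm1*, which was at the floor of 3 reads at day 3, set to it. The highest were *Hmmr* (-0.22), *Ccnb2* (-0.51) and *Prc1* (-0.69), and the lowest *Kif20a* (-2.61, adjusted p = 0.024), *Bub1b* (-2.37) and, as fitted only, *Foxm1*. From day 3 to day 7 again 0 were called (0.302% of all entries, 13 genes at an unadjusted p under 0.05, and 1 by DESeq2). By then 15 of the 27 genes had 3 labelled reads or fewer in each DMSO library of day 7, and a fitted fold change against such a group is no measured size. The median was -2.13 as fitted and 0.07 over all entries. It was -0.81 with 14 of those genes set to the floor and *Foxm1*, at the floor on both days, left out. The genes above that floor ranged from -0.03 for *Cdca8*, -0.19 for *Ccna2* and -0.27 for *Mad2l1* down to -2.72 for *Top2a*, and the lowest fitted values, of *Cenpe*, *Ccnb2* and *Hmmr*, were all at the floor at day 7. At day 7 against day −2, 14 of 27 genes were lower, where 28.6% of all entries were called lower, and 10 of the 14 were at the floor at day 7. With all 15 genes at the floor set to 3 reads in each library the median over the 27 genes was -1.95, against -2.96 as fitted and -1.53 over all entries. Of the measured genes, the log2 fold change was -3.16 (SE 0.69, adjusted p = 2.6e-04) in *Plk1*, -2.91 (SE 0.91, adjusted p = 0.0078) in *Smc4*, -2.83 (SE 0.66, adjusted p = 7.3e-04) in *Cdk1* and -2.55 (SE 0.60, adjusted p = 5.9e-04) in *Top2a*. Labelled *Cdk1* in DMSO was at 69.1, 36.3 and 62.0 (day −2), 60.7, 27.3 and 71.2 (day 1), 45.2, 10.5 and 2.44 (day 3), and 3.38, 4.13 and 16.0 (day 7) normalized counts. *Cenpe*, *Ccnb2* and *Foxm1* had 0 labelled reads at day 7, and their levels at day −2 were at least 4.38-fold, 2.76-fold and 2.39-fold higher. *Nusap1* (-0.59, adjusted p = 0.63), *Cdca8* (-1.08, adjusted p = 0.41) and *Ncaph* (-1.14, adjusted p = 0.033) changed least and were not called. Scaled by labelled reads, 1 gene was called lower at day 7 against day −2, and the share of all entries with that scaling is not given here. Without replicate A the number was 2, without replicate B 13 and without replicate C 5.

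With ML-792, none of the 27 genes was called in labelled reads against DMSO at day −2 (edgeR, 0% of all entries called, 1 gene at an unadjusted p under 0.05) or at day 1 (0.878% of all entries, 1 gene at an unadjusted p under 0.05), and DESeq2 called 0 at both days. At day −2 the values ran from -1.34 (*Hmmr*), -1.34 (*Plk1*) and -0.94 (*Cenpe*) to 0.38 (*Aurka*), 0.57 (*Top2a*) and 0.64 (*Ccnb1*). At day 1 they ran from -1.37 (*Hmmr*), -1.16 (*Cdc20*) and -0.88 (*Bub1b*) to 0.63 (*Cenpa*), 0.65 (*Kif23*) and 0.69 (*Prc1*). At day 3 *Cdc20* was lower, where 0.576% of all entries were called lower. Its labelled counts in DMSO are given above, and with ML-792 they were 28.8, 7.05 and 13.3 (day −2), 32.7, 9.49 and 43.7 (day 1), 1.09, 1.29 and 3.70 (day 3), and 1.19, 1.31 and 4.09 (day 7). At day 3 the treated libraries were at the floor of 3 reads, and DMSO was at least 5.83-fold higher (adjusted p = 0.019). *Tpx2* and *Ccnb2*, also at the floor with ML-792, were not called and had at least 1.47-fold and 1.13-fold higher levels in DMSO. *Incenp* (0.98, adjusted p = 0.81) and *Smc4* (0.23, adjusted p = 0.98) were at the other end, and *Foxm1* was at the floor in both treatments. The median was -0.80 with 11 genes at the floor in ML-792 set to it and *Foxm1* left out, -1.28 as fitted and -0.09 over all entries. At day 7 0 genes were called (0.869% of all entries, 2 genes at an unadjusted p under 0.05, 0 by DESeq2), and 14 of the 27 were at the floor in both treatments, among them *Cenpe*, *Ccnb2*, *Incenp* and *Racgap1*. *Nusap1* was at the floor with ML-792, and *Ccna2* was measured in both (1.27, adjusted p = 0.64).

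In the share of reads that were labelled, *Ncaph*, *Prc1* and *Nuf2* had the highest values. Pooled over all 24 libraries the share was 16.5% in *Ncaph* and 9.75% in *Prc1*, against 0.676% to 3.20% in the other 38 genes. By condition it ran from 13.5% to 31.5% in *Ncaph* and from 5.73% to 14.2% in *Prc1*. *Nuf2* had few reads at the late days, with 13 of 15 reads labelled (86.7%) in DMSO at day 7, 11 of 42 reads labelled (26.2%) with ML-792 at day 3 and 9 of 13 reads labelled (69.2%) with ML-792 at day 7, and at most 3.35% in the other 5 conditions. The highest share of any of the other 37 genes in a condition was 8.17%, in *Ccna2* with ML-792 at day 7. What part of these labelled reads is RNA of the pulse was not tested. Labelled counts of *Prc1* in DMSO at day 1 were 25, 409 and 3 reads, so its labelled values differed between replicates by more than those of its total reads. Without *Ncaph*, *Prc1* and *Nuf2*, left out after their values were seen, the labelled share of the other 37 genes in DMSO was 2.48% ± 0.542 before induction, 1.01% ± 0.143 on day 1, 1.17% ± 0.412 by day 3 and 1.31% ± 0.321 on day 7 (SD, n = 3). That of all genes was 3.19% ± 0.471 before induction, 1.28% ± 0.0744 on day 1, 1.02% ± 0.112 by day 3 and 1.01% ± 0.0914 on day 7 (SD, n = 3). With ML-792 the 37 genes had 2.34% ± 0.374 before induction, 0.852% ± 0.0340 on day 1, 0.857% ± 0.0147 by day 3 and 1.18% ± 0.116 on day 7 (SD, n = 3), and all genes 2.85% ± 0.213 before induction, 1.05% ± 0.0546 on day 1, 0.936% ± 0.0361 by day 3 and 0.822% ± 0.0317 on day 7 (SD, n = 3). With *Nuf2* kept, the share in DMSO was 2.48% ± 0.544, 1.01% ± 0.142, 1.16% ± 0.411 and 1.43% ± 0.315 (SD, n = 3). For the full list in DMSO it was 3.04% ± 0.527, 1.33% ± 0.347, 1.86% ± 0.256 and 2.14% ± 0.405 (SD, n = 3). With ML-792 the full list had 2.92% ± 0.294, 1.38% ± 0.0982, 1.28% ± 0.132 and 1.70% ± 0.235 (SD, n = 3). Genes of high labelled share were left out of the list only and not of all genes, so the 37 genes and all genes are not a like comparison.

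Other genes of the same pathways give the setting. Of 83 further mitosis genes in the table, 80 were tested, and 40 rose at day 1 in DMSO, against 5.40% of all entries called higher, with 0 lower (median log2 1.36). The highest were *Zwilch* at 2.11 (adjusted p = 3.1e-05) and *Troap* at 2.07 (adjusted p = 0.013), the latter not called, and the lowest *Kif20b* at -0.83 (adjusted p = 0.52) and *Psrc1* at -0.44 (adjusted p = 0.13). With ML-792 at day 3, 27 of the 80 were lower, against 6.34% of all entries, and 0 higher (median -0.57). At day 1 0 were higher and 0 lower with ML-792 by edgeR, with 5 at an unadjusted p under 0.05, from *Cenpw* at -0.55 (adjusted p = 0.31) and *Parpbp* at -0.53 (adjusted p = 0.38) to *Hmgb2* at 0.79 (adjusted p = 0.34) and *Spdl1* at 1.04 (adjusted p = 0.21).

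DNA replication genes, which act before mitosis in S phase, rose in 20 of 40 cases at day 1, against 5.40% of all entries (median 0.95), with *Rrm2* at 1.92 (adjusted p = 2.1e-05) and *Rfc5* at 1.89 (adjusted p = 2.1e-04) highest and *Ung* at -0.06 (adjusted p = 0.91) and *Rfc3* at 0.10 (adjusted p = 0.86) lowest. At day 3, ML-792 lowered 5 of these 40 genes, against 6.34% of all entries called lower, and raised 1, against 6.68% called higher (median -0.31). At day 1 it raised 2 of 40, against 3.14% of all entries called higher, with *Pola1* at 1.12 (adjusted p = 0.050) highest and *Gins2* at -0.35 (adjusted p = 0.7) and *Pcna* at -0.32 (adjusted p = 0.87) lowest.

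The core subunits of the APC/C and of cohesin number 25 genes. At day 1 in DMSO 3 of 25 rose, against 5.40% of all entries, and 0 fell (median 0.27), from *Nipbl* at -0.48 (adjusted p = 0.49) and *Anapc4* at -0.29 (adjusted p = 0.46) to *Rad21* at 0.92 (adjusted p = 0.0012) and *Cdc26* at 1.02 (adjusted p = 0.24). With ML-792, 2 of 25 were lower at day 3, against 6.34% of all entries, and 0 were called by edgeR at day 1, with 1 at an unadjusted p under 0.05, where *Anapc10* was at -0.53 (adjusted p = 0.42), *Anapc1* at -0.34 (adjusted p = 0.51), *Smc3* at 0.42 (adjusted p = 0.65) and *Nipbl* at 0.49 (adjusted p = 0.76). DESeq2 was not summarised over these lists. Of the 22 genes for DREAM subunits, E2F factors and NF-Y, 0 were called by edgeR at day 1 in DMSO, with 3 at an unadjusted p under 0.05 (median 0.04). *Rb1* was at -0.30 (adjusted p = 0.47), *E2f1* at -0.28 (adjusted p = 0.47), *Lin9* at 0.95 (adjusted p = 0.039) and *E2f2* at 1.02 (adjusted p = 0.022). With ML-792 at day 1 *E2f5* was at -0.30 (adjusted p = 0.72), *E2f4* at -0.21 (adjusted p = 0.8), *Lin52* at 0.53 (adjusted p = 0.54) and *Lin37* at 0.62 (adjusted p = 0.53), with 0 called by edgeR and 1 at an unadjusted p under 0.05, and 1 of 22 was lower at day 3, against the 6.34%.

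Of the 40 mitosis genes 19 had a single tested 3′UTR entry and 21 had more, which can overlap and count the same reads. The 28 further entries of these 21 genes had the sign of the entry used in 28 of 28 cases at day 1 against day −2 in DMSO, with 19 called higher, and in 26 of 28 for ML-792 at day 3, with 13 called lower.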

How the data were processed

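Total and labelled RNA was measured by SLAMseq in 24 libraries of 3T3-L1 cells. The authors prepared QuantSeq 3′ libraries, sequenced them and used SlamDunk with the mouse build mm10 and RefSeq 3′UTRs, and they deposited raw counts of total reads and of labelled reads, those with a T to C conversion, over 91830 entries. A total of 6 further library columns in each table matched no sample and were not used here. The submitters' processing notes name bcl2fastq 2.17.1.14. Labelled counts were scaled by edgeR's TMM effective sizes of the same libraries in total reads, where the study's methods scaled them by size factors of the total reads from DESeq2. Groups were taken from the sample labels, in which the mark _ before the 2 was read as a minus sign, so that every day −2 value rests on this reading, and the 3 replicates of a condition are biological per the study's methods.

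Counts were filtered (filterByExpr, minimum count 10, minimum total 15). They were tested with edgeR 4.0.16 (quasi-likelihood, TMM) with limma 3.58.1 in R 4.3.3, with Benjamini-Hochberg adjustment over 26563 total and 10589 labelled entries. The prior count of 2 among the settings was not applied to the fold changes of these tests. For labelled *Cenpe* in DMSO, means of 14.5 (day −2) and 0 (day 7) normalized counts gave a fitted log2 fold change of -6.89. The 12 DMSO libraries were fitted for the DMSO time course and all 24 for the rest. Calls needed an adjusted p under 0.01 over time and under 0.1 for ML-792 and interactions. The SE given with edgeR values, also in the figures, is the absolute log2 fold change divided by the square root of the test's F statistic. Labelled folds against a group with 3 reads or fewer in each library are bounds. The scripts were tested on simulated data. Alternatives were DESeq2 1.42.0, no filter, 1 entry per gene, other sets of libraries, labelled scaling, a replicate block and leaving out replicates. Full values were given for 23 representative genes of the roles, the 3 highest and 3 lowest in each comparison, and the 2 highest and 2 lowest of each list, of which 1 value is not reported here. The members and lists were chosen with earlier results of these data known. Depth is given as total reads, and intervals for counting error alone were not computed.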

Additional observations from a re-analysis of the deposited data

Results flagged for a closer look

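The change over a step differed between treatments, by edgeR's interaction test, in 8 cases. From day 1 to day 3 the log2 step with ML-792 minus that with DMSO was -1.94 (SE 0.48, adjusted p = 0.024) in *Nuf2*, -1.26 (SE 0.31, adjusted p = 0.022) in *Tpx2*, -1.16 (SE 0.29, adjusted p = 0.028) in *Top2a*, -1.13 (SE 0.33, adjusted p = 0.078) in *Cenpa*, -1.05 (SE 0.31, adjusted p = 0.072) in *Ccna2* and -0.85 (SE 0.25, adjusted p = 0.066) in *Aurka*. From day 3 to day 7 it was 1.00 (SE 0.24, adjusted p = 0.020) in *Birc5* and 1.26 (SE 0.26, adjusted p = 0.0081) in *Aurka*. *Nuf2* had few reads at day 3, 131 summed over the DMSO libraries and 42 over those with ML-792. Both steps use the same day 3 libraries. Of all entries, 1.77% were called lower in the step from day 1 to day 3 and 1.78% higher in that from day 3 to day 7. When 1 replicate or library was left out, 0 to 14 of the mitosis genes were called in the first of these steps and 0 to 3 in the second. Without replicate A the number was 0 in both steps, and without replicate C it was 0 in the first.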

How the results depend on the processing

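When 1 replicate or library was left out, the genes called in DMSO numbered 12 to 33 at day 1 against day −2, 22 to 36 at day 3 against 1, 18 to 34 at day 7 against 3 and 32 to 38 at day 7 against −2. With ML-792 against DMSO they numbered 0 to 0 at day −2, 0 to 1 at day 1, 6 to 24 at day 3 and 0 to 3 at day 7. In the ML-792 time course they numbered 16 to 32, 32 to 40 and 9 to 31 in the 3 steps, and in the interactions 0 to 0, 0 to 14 and 0 to 3. In labelled reads the ranges in DMSO were 0 to 1, 0 to 1, 0 to 1 and, for day 7 against −2, 2 to 13, and for ML-792 at the 4 days 0 to 0, 0 to 0, 0 to 1 and 0 to 0. The mean summed share in percent ranged over 0.151 to 0.158, 0.535 to 0.583, 0.134 to 0.150 and 0.0290 to 0.0356 in DMSO and 0.136 to 0.159, 0.496 to 0.558, 0.0754 to 0.0855 and 0.0246 to 0.0290 with ML-792, and was 0.161 at DMSO day −2 with the longest entry. The settings that left out DMSO day 1 replicate B, ML-792 day 1 replicate C or DMSO day 3 replicate B or C were chosen after seeing the data.

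ML-792 at day 1 gave 2 genes by DESeq2, 1 without the filter on low counts and 2 with 1 entry per gene. At day 3, 13 passed an absolute log2 fold change above 1. At day 7, 0 were called in the 6 libraries of that day. The interaction from day 1 to 3 gave 10 by DESeq2, 11 without the filter and 10 with 1 entry per gene. In labelled reads, scaling by labelled totals gave 5 at day 1, 1 at day 7 against 3, 1 at day 7 against −2 and 2 for ML-792 at day 3. For day 3 against 1, 24 libraries gave 1 and DESeq2 1. For day 7 against 3, 24 libraries gave 1, DESeq2 1 and no filter 1. For ML-792 at day 3 the 6 libraries gave 2, DESeq2 2 and 1 entry per gene 2. The shares of all entries called under these alternatives are not given here. The cause of these changes was not tested.

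Replicates shared only a letter. Deviations of same-letter libraries correlated at a mean of 0.191 (lowest -0.173) against -0.0939 for other letters, and 22 of 24 libraries correlated best with their own letter, a hint from the data and not from the design. With the letter as a replicate block the calls were 32, 38, 34 and 37 over time in DMSO, 0, 4, 27 and 8 between treatments by day, 33, 37 and 33 in the ML-792 time course and 0, 17 and 10 in the interactions. In labelled reads the block gave 3, 1, 1 and 14 over time in DMSO and 0, 0, 2 and 0 for ML-792.

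Of 4826 values of single genes under alternatives, 50 changed sign. With DESeq2 the log2 values were 0.0125 for *Cdca8* (labelled reads, DMSO day 7 against 3), 0.00725 for *Anln* (total reads, DMSO day 7 against 3). With 1 entry per gene the log2 values were 0.00869 for *Cdca8* (labelled reads, DMSO day 7 against 3), 0.0297 for *Anln* (total reads, DMSO day 7 against 3), -0.00814 for *Smc2* (total reads, interaction, step from day 1 to 3). With the replicate block the log2 values were 0.0262 for *Hmmr* (labelled reads, DMSO day 3 against 1), 0.40 for *Prc1* (labelled reads, DMSO day 3 against 1), 0.20 for *Cdca8* (labelled reads, DMSO day 7 against 3), 0.0883 for *Mad2l1* (labelled reads, DMSO day 7 against 3), 0.0686 for *Anln* (total reads, DMSO day 7 against 3), 0.0200 for *Mki67* (total reads, ML-792 against DMSO, day 3), 0.12 for *Cenpf* (total reads, interaction, step from day 1 to 3), -0.17 for *Smc2* (total reads, interaction, step from day 1 to 3). With labelled scaling the log2 values were 0.15 for *Ncaph* (labelled reads, DMSO day 7 against −2), 0.67 for *Nusap1* (labelled reads, DMSO day 7 against −2). With a replicate or library left out, those that changed sign in any such setting ranged over -0.41 to 0.61 for *Anln* (total reads, DMSO day 7 against 3), -1.92 to 2.26 for *Ccna2* (labelled reads, DMSO day 7 against 3), -3.23 to 0.96 for *Ccnb2* (labelled reads, DMSO day 3 against 1), -5.65 to 0.0656 for *Ccnb2* (labelled reads, ML-792 against DMSO, day 3), -0.57 to 0.0778 for *Cdc20* (total reads, ML-792 against DMSO, day −2), -0.16 to 2.00 for *Cdca8* (labelled reads, DMSO day 7 against 3), -0.83 to 1.32 for *Cenpe* (total reads, ML-792 against DMSO, day 3), -0.40 to 1.48 for *Cenpf* (total reads, ML-792 against DMSO, day 3), -1.19 to 1.55 for *Cenpf* (total reads, interaction, step from day 1 to 3), -0.0267 to 1.65 for *Ect2* (total reads, ML-792 against DMSO, day 7), -0.80 to 2.51 for *Foxm1* (labelled reads, ML-792 against DMSO, day 3), -0.70 to 0.10 for *Hmmr* (labelled reads, DMSO day 3 against 1), -1.67 to 4.76 for *Mad2l1* (labelled reads, DMSO day 7 against 3), -0.24 to 0.0709 for *Mad2l1* (total reads, ML-792 against DMSO, day 3), -0.0700 to 1.19 for *Mki67* (total reads, ML-792 against DMSO, day 1), -0.58 to 1.43 for *Mki67* (total reads, ML-792 against DMSO, day 3), -1.25 to 2.58 for *Prc1* (labelled reads, DMSO day 3 against 1), -0.12 to 4.28 for *Prc1* (labelled reads, ML-792 against DMSO, day 1), -1.29 to 0.15 for *Smc2* (total reads, DMSO day 7 against 3), -0.50 to 0.92 for *Smc2* (total reads, ML-792 against DMSO, day 3), -1.10 to 0.86 for *Smc2* (total reads, interaction, step from day 1 to 3), -1.46 to 1.40 for *Smc4* (labelled reads, ML-792 against DMSO, day 3), -0.27 to 0.41 for *Smc4* (total reads, DMSO day 7 against 3), -0.18 to 1.22 for *Smc4* (total reads, interaction, step from day 1 to 3). Labelled reads are few, and counting error alone limits values of single genes there.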
